A study of Mus musculus with 12 samples.

Results

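The genes described here are 10 that are known from myeloid cells, the lineage of monocytes, macrophages and granulocytes: Csf1r, Cd68, Tmem119, Plac8, Cd14, Cd74, Ptprc, Tyrobp, Fcer1g and Adgre1. They were measured in cultured aortic cells and were chosen by name, with the contrast between genotypes in these data already known. Each had 1 row among the 29462 genes of the table, and 6 of the 10 reached the level needed for testing. The 12 libraries hold polyadenylated RNA of primary aortic smooth muscle cells from mice. In 6 libraries (KO) the cells came from mice with a global knockout of cystathionine gamma-lyase (CSE, encoded by Cth), an enzyme that makes hydrogen sulfide, and in 6 (WT) from C57BL/6J mice. All cells of both genotypes received angiotensin II, a vasoconstrictor peptide, at 1 uM for 24 h, so the response to angiotensin II itself was not analysed here. The labels give no age or number of animals and do not tell separate cultures from repeat libraries, so the error behind each p-value is that between libraries and may be technical only.

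Levels are FPKM, which are fragments scaled by the length of the gene model and by the library's mapped fragments, and so can be compared between genes. Cth was near 0 in both genotypes, at 0 to 0.02 FPKM in KO and 0 to 0.08 FPKM in WT, and does not serve as a check of the labels. Of the defining smooth muscle genes, Myh11 was at 0.00833 ± 0.0117 FPKM in KO and 0.0133 ± 0.00516 FPKM in WT (SD, n = 6 each), while Acta2 was at 102 ± 32.3 FPKM in KO and 120 ± 11.1 FPKM in WT. Among 10 listed genes of contractile smooth muscle, 8 had means below 1 FPKM in both genotypes. KO replicates 5 and 6 stood apart: across genes their log2 levels correlated with those of KO replicates 1 to 4 at r = 0.947 to 0.960, while KO replicates 1 to 4 correlated among themselves at 0.993 to 0.995 and the WT libraries at 0.992 to 0.995. Xist, the RNA of the inactive X chromosome, was at 0.31 to 3.53 FPKM in KO and 0.01 to 0.04 FPKM in WT, and the Y-linked Ddx3y was at 3.49 to 6.78 FPKM in KO and 9.87 to 11.8 FPKM in WT. Whatever these sex-linked differences stand for cannot be told apart from the genotype.

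Macrophages depend on signals through the CSF1 receptor, and leukocytes of all kinds carry the surface phosphatase CD45, the product of Ptprc. TYROBP and FCER1G are short membrane adaptors that pass on signals from activating receptors of myeloid cells through tyrosine motifs called ITAMs, and ADGRE1 is the F4/80 antigen of mouse macrophages. Other genes of the set are less bound to leukocytes: Plac8 is also known from placenta and epithelium, Tmem119 from bone-forming cells as well as microglia, and Cd14 and Cd68 are also found in fibroblasts.

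The set fell into 3 patterns. Plac8, Tmem119, Cd68 and Csf1r were higher in each KO library than in any WT library. Of the 11831 genes tested, those with at least 1 FPKM in at least 6 libraries, 23.8% had all KO values above all WT values, and in 46.4% the groups did not overlap in one direction or the other. Cd14 and Cd74 were present in both genotypes, with values that overlapped. Ptprc, Tyrobp, Fcer1g and Adgre1 lay between 0 and 0.29 FPKM in all 12 libraries. Summed over the last 4 genes, a library held 0 to 0.18 FPKM in KO and 0 to 0.40 FPKM in WT, whereas Plac8, Tmem119, Cd68 and Csf1r together held 69.4 to 99.6 FPKM in KO and 2.86 to 3.88 FPKM in WT.

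**Figure D1:**
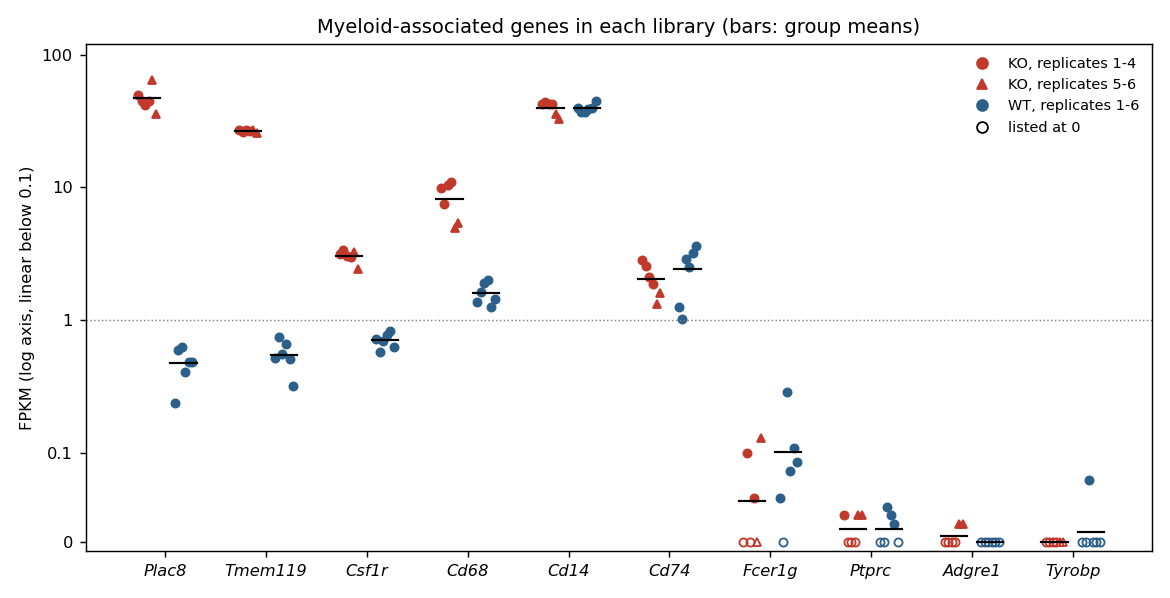
FPKM of the 10 myeloid-associated genes in each library, KO (red) left of WT (blue), on a log axis that is linear below 0.1. Open symbols are libraries listed at 0, triangles are KO replicates 5 and 6, black bars are group means and the dotted line is 1 FPKM. Plac8, Tmem119, Csf1r and Cd68 separate by genotype, Cd14 and Cd74 do not, and the 4 leukocyte genes on the right stay at or below 0.29 FPKM.

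Positions are those of GENCODE M21 on GRCm38. Tmem119 and Plac8 lie on the minus strand of chromosome 5, at 113793729 to 113800516 and 100553725 to 100572245. Cd68 spans 69664213 to 69666153 on the minus strand of chromosome 11. The leukocyte genes are Tyrobp on chromosome 7 (30413760 to 30417585, plus strand), Adgre1 on chromosome 17 (57358691 to 57483527, plus strand), and Ptprc (138062861 to 138175708) and Fcer1g (171229572 to 171234365), both on the minus strand of chromosome 1. For Tyrobp the row lists 1 of 3 annotated transcripts, for Adgre1 1 of 5 and for Ptprc 8 of 13. It lists 3 of 6 for Csf1r and 4 of 5 for Cd74. Plac8, Cd68, Tmem119, Cd14 and Fcer1g have all of theirs.

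RefSeq promoter windows of 300 bases, from 250 before to 50 after a start, were found for 4 of the 10 genes. They are shown because Plac8 and Cd68 separated by genotype while Ptprc and Fcer1g were near 0 in the same cells. Capitals mark the box GAGGAA, the core bound by PU.1 (the myeloid factor encoded by Spi1), and the AP-1 site TGANTCA, on either strand. Coordinates are those of GRCm38.p6 and sequences read 5′ to 3′ on the gene's strand, for Plac8 chr5:100572156-100572455, for Cd68 chr11:69666121-69666420, for Ptprc chr1:138175256-138175555 and for Fcer1g chr1:171234300-171234599, all on the minus strand.
Plac8: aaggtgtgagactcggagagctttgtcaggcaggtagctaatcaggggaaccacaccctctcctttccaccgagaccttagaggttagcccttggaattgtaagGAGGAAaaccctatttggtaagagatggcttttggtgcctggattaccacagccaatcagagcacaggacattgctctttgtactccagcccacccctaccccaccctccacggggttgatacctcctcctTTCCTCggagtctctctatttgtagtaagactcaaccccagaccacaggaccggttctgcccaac
Cd68: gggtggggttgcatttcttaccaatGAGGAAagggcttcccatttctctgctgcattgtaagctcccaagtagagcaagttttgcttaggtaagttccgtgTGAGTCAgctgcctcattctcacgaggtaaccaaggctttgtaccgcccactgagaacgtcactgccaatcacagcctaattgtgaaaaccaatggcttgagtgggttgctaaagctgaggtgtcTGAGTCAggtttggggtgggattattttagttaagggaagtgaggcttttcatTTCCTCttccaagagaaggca
Ptprc: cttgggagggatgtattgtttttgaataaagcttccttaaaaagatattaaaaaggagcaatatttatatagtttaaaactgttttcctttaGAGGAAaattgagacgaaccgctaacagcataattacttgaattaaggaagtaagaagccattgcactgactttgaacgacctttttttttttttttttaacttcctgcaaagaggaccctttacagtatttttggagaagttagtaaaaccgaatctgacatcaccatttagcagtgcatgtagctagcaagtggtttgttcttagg
Fcer1g: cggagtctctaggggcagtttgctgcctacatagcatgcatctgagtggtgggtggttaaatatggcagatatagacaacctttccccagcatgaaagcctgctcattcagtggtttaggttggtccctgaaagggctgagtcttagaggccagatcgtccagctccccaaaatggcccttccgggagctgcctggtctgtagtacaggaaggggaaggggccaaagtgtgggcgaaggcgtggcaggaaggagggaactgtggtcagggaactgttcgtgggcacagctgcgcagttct
GAGGAA occurred at 2 places in the Plac8 window, 2 in that of Cd68, 1 in that of Ptprc and 0 in that of Fcer1g, and it is held by 28.3% of all 32851 windows in the table. TGANTCA occurred at 2 places in the Cd68 window, 149 and 24 bases before the start, and in 7.8% of all windows. A second window of Plac8 and one of Ptprc, at other starts, held neither. The matches describe these letters only. Spi1 itself was at 0 to 0.10 FPKM in KO and 0.01 to 0.19 FPKM in WT.

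Csf1r, the receptor tyrosine kinase for CSF1 and interleukin 34, was higher in KO. Its lowest, median and highest values were 2.45, 3.10 and 3.37 FPKM in KO, against 0.58, 0.71 and 0.83 FPKM in WT. The groups did not overlap, and the lowest KO value was that of replicate 6. The means were 3.05 ± 0.326 FPKM in KO and 0.707 ± 0.0924 FPKM in WT (SD, n = 6 each), a ratio of 4.32, and 70.1% of all genes in KO and 58.8% in WT had a lower mean. The gene spans 61100598 to 61132149 on the plus strand of chromosome 18 and overlaps Hmgxb3 on the other strand. Library making marked the strand with dUTP, but no source used here says if reads were assigned by strand. Hmgxb3 was at 4.69 ± 0.832 FPKM in KO and 4.63 ± 0.376 FPKM in WT.

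Cd68 encodes a heavily glycosylated protein of late endosomes and lysosomes, related to the LAMP proteins. It ran from 5.00 to 10.96 FPKM in KO with a median of 8.68, against 1.27 to 2.03 FPKM in WT with a median of 1.56. No KO library reached down to the WT range, but KO replicates 5 and 6, at 5.00 and 5.37 FPKM, held less than replicates 1 to 4, at 7.48 to 10.96 FPKM. The KO mean of 8.19 ± 2.62 FPKM was 5.06 times the WT mean of 1.62 ± 0.305 FPKM, and the ratio was 5.99 for KO replicates 1 to 4 and 3.20 for replicates 5 and 6.

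Tmem119, a single-pass membrane protein used as a microglia marker in brain, was the most even among KO libraries of the 6 genes that could be tested. It lay between 25.78 and 27.13 FPKM in KO with a median of 26.7, against 0.32 to 0.75 FPKM in WT with a median of 0.54. Its coefficient of variation was 1.91% in KO, where that of Cd68 was 32.0%, and KO replicates 5 and 6 (mean 26.4 FPKM) differed little from replicates 1 to 4 (26.7 FPKM). The ratio of means was 48.1, from 26.6 ± 0.509 FPKM in KO and 0.553 ± 0.147 FPKM in WT.

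Plac8, a small cysteine-rich protein, had the largest difference of the 10. The lowest, median and highest values were 35.81, 44.5 and 64.27 FPKM in KO, against 0.24, 0.49 and 0.63 FPKM in WT. Both ends of the KO range were libraries that stood apart, replicate 6 at the low end and replicate 5 at the high end. The mean of 46.7 ± 9.68 FPKM in KO was 98.0 times that of 0.477 ± 0.141 FPKM in WT, and 96.9% of genes in KO but 56.2% in WT had a lower mean.

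On the log2(FPKM + 1) scale, which understates differences of low genes, the KO minus WT differences were 5.00 ± 0.12 for Plac8, 4.16 ± 0.06 for Tmem119, 1.77 ± 0.17 for Cd68 and 1.24 ± 0.06 for Csf1r (SE from limma over all genes). Ranked from the highest among 11831 genes tested, these were the 9th, 30th, 256th and 524th. All 4 passed an adjusted p of 0.05 with KO the higher, as did 32.6% of the genes tested. Because the genes were chosen with this contrast known, the calls are no evidence of their own. Plac8, Tmem119 and Csf1r also reached 1 FPKM only in KO libraries, so they could enter the test only by differing. Cd14 and Cd74 did not pass. In the authors' deposited table the same 4 genes of the 10 are marked significant.

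**Figure D2:**
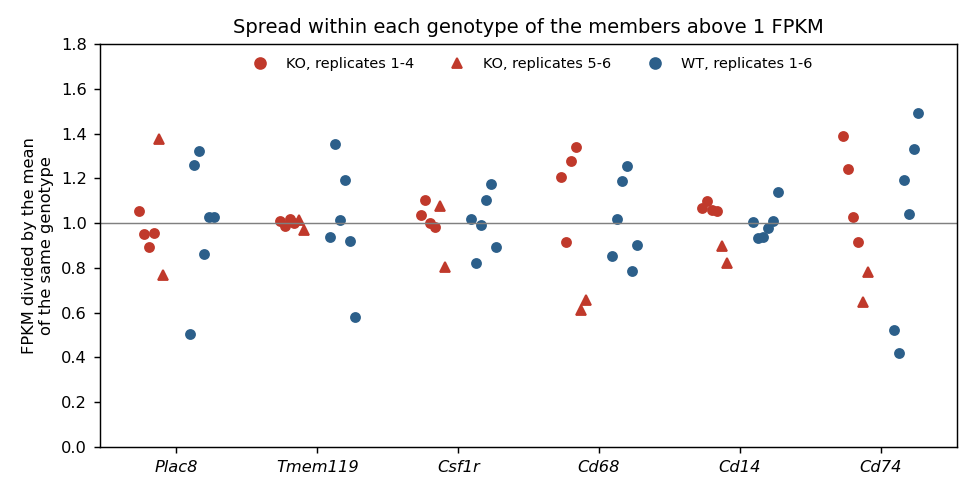
FPKM of each library divided by the mean of its own genotype, for the 6 genes that reached 1 FPKM, KO (red) left of WT (blue), with KO replicates 5 and 6 as triangles. Tmem119 varied least in KO, with a coefficient of variation of 1.91%, KO replicates 5 and 6 lie below replicates 1 to 4 in Cd68, Cd14 and Cd74, and Cd74 varied most in WT, at 43.7%.

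Cd14, the coreceptor that hands lipopolysaccharide to Toll-like receptor 4, was among the abundant genes of these cells in both genotypes (chromosome 18, 36725067 to 36726798, minus strand). It lay between 32.79 and 43.94 FPKM in KO with a median of 42.2, against 36.85 to 44.95 FPKM in WT with a median of 39.1. The ranges overlapped, KO replicates 5 and 6 being the lowest libraries at 35.77 and 32.79 FPKM and replicates 1 to 4 lying at 42.13 to 43.94 FPKM. Means were 39.9 ± 4.53 FPKM in KO and 39.5 ± 2.95 FPKM in WT, with a log2 difference of 0.01 ± 0.08. A lower mean was found for 96.3% of genes in KO and 96.6% in WT.

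Cd74, the invariant chain that escorts class II molecules and also a receptor for the cytokine MIF, was low and uneven (chromosome 18, 60803848 to 60812652, plus strand). Its lowest, median and highest values were 1.33, 2.00 and 2.86 FPKM in KO, against 1.02, 2.70 and 3.62 FPKM in WT. Within WT, replicates 1 and 2 held 1.27 and 1.02 FPKM and replicates 3 to 6 held 2.52 to 3.62 FPKM, so the spread inside the genotype exceeded the difference between the means of 2.06 ± 0.575 FPKM in KO and 2.42 ± 1.06 FPKM in WT. The log2 difference was -0.12 ± 0.21.

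The class II genes that pair with Cd74 were lower still, and in WT they split the libraries the same way. H2-Eb1 was at 0.11 to 0.52 FPKM in KO, and at 0.05 and 0.04 FPKM in WT replicates 1 and 2 but 0.31 to 0.62 FPKM in WT replicates 3 to 6. H2-Ab1 was at 0.02 to 0.26 FPKM in KO, and at 0.02 FPKM in both WT replicates 1 and 2 but 0.25 to 0.43 FPKM in replicates 3 to 6. In KO the order differed: H2-Eb1 was highest in replicates 1 and 5, at 0.52 and 0.49 FPKM, while Cd74 was highest in replicate 1 and lowest in replicate 5. Cd79a, a B cell gene, was at 0 to 0.30 FPKM in KO and 0 to 0.48 FPKM in WT, where replicates 1 and 2 held 0.03 and 0 FPKM and replicates 3 to 6 held 0.20 to 0.48 FPKM. At these levels the values rest on few fragments, and the part of other cells in them was not tested. Ciita, the master regulator of class II genes, was at 0 to 0.03 FPKM in KO and 0 to 0.03 FPKM in WT.

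**Figure D3:**
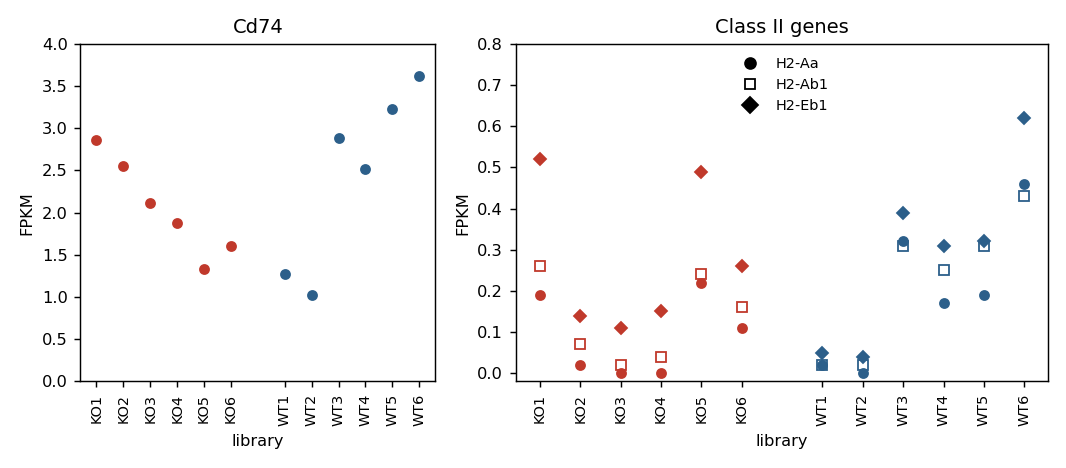
FPKM per library of Cd74 (left) and of H2-Aa, H2-Ab1 and H2-Eb1 (right, on a smaller scale), with KO in red and WT in blue. WT replicates 1 and 2 are low in all 4 genes, and KO replicate 5 is low in Cd74 but not in the class II genes.

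Ptprc, a gene of all leukocytes, and the myeloid genes Tyrobp, Fcer1g and Adgre1 were at or near 0. Ptprc had a lowest, median and highest value of 0, 0.015 and 0.03 FPKM in KO, against 0, 0.01 and 0.04 FPKM in WT, and was listed at 0 in 3 libraries of each genotype. Tyrobp was listed at 0 in all 6 KO libraries and in 5 WT libraries, and stood at 0.07 FPKM in WT replicate 3. Fcer1g was at 0, 0.025 and 0.13 FPKM in KO, against 0, 0.085 and 0.29 FPKM in WT, with the highest value again in WT replicate 3. Adgre1 was listed at 0 in all WT libraries and in KO replicates 1 to 4, and at 0.02 FPKM in KO replicates 5 and 6. None of these 4 could be tested, and depth in reads is unknown, so a level of 0 says only that the gene is listed at 0.

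By library, Ptprc, Tyrobp, Fcer1g and Adgre1 summed to 0.03, 0.10, 0, 0.05, 0.05 and 0.18 FPKM in KO replicates 1 to 6, and to 0.05, 0, 0.40, 0.11, 0.13 and 0.09 FPKM in WT replicates 1 to 6. The sums overlapped between the genotypes, with the highest in WT replicate 3, and a sum of 0 was found in 1 library of each. In bulk RNA, a change in the number of cells that express a gene and a change in its RNA per cell cannot be told apart.

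Genes known from the same cells or pathways were read from 17 lists, which hold none of the 10 genes. Of 244 listed genes 215 had a row and 81 could be tested, of which 43 rose and 15 fell in KO. Over all 11831 genes tested, 63.5% were called, 32.6% higher and 30.9% lower, with a median log2 difference of 0.01, so a share called among a list has to be read against that. Of the 81 listed genes tested, 14 reached 1 FPKM in no library of one genotype and so could enter the test only by differing, and another 6 reached it in some libraries of a genotype only. Among the 61 that reached 1 FPKM in all 12 libraries, 26 rose and 13 fell. The shares over all genes tested were not limited in this way. Counts under this limit, here and below, therefore have no matching share.

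**Figure D4:**
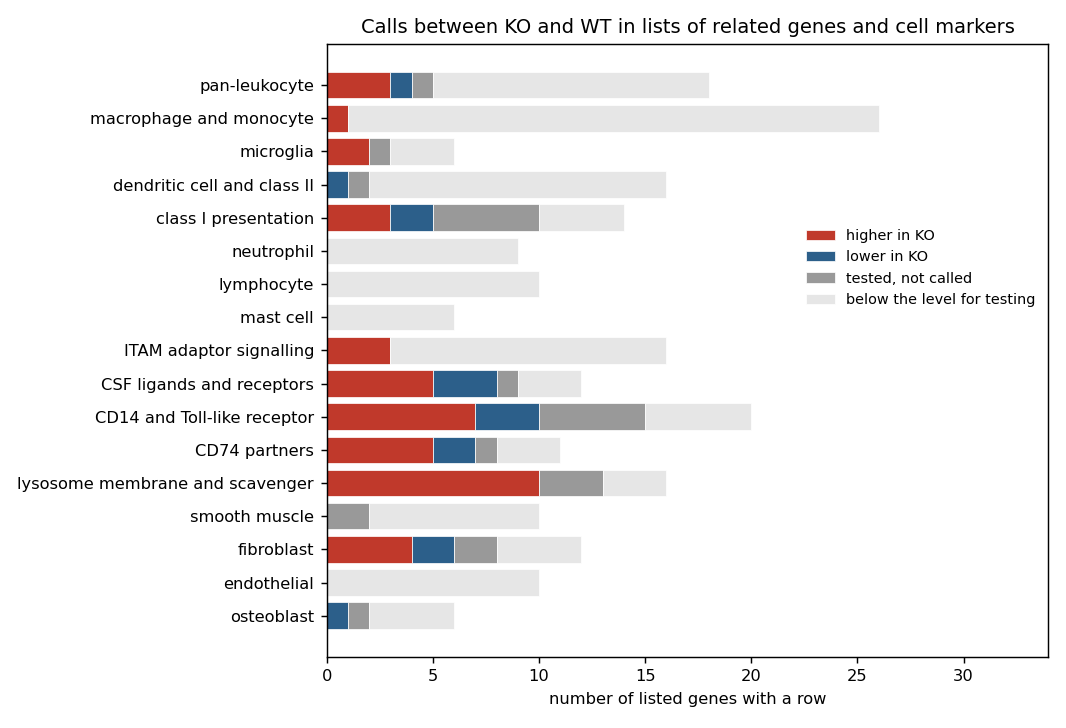
Number of genes in each of 17 lists that had a row, divided into those called higher in KO (red), called lower in KO (blue), tested and not called (grey) and below the level for testing (light grey). In the lists of macrophage, neutrophil, lymphocyte and mast cell markers 1 gene could be tested, whereas 13 of 16 genes with a row could be in the lysosome and scavenger list. Of these 13, 10 were called higher, including 3 that reached 1 FPKM in no WT library. Over all genes tested, 32.6% were called higher.

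Markers of whole leukocyte classes stayed mostly below the level for testing. Of 26 macrophage and monocyte genes with a row, 20 had means below 0.1 FPKM in both genotypes and Cd163 was listed at 0 in all 12 libraries. Among them were C1qa, C1qb and C1qc, the subunits of complement C1q, of which no library held more than 0.09 FPKM. The summed level of the list was 3.46 to 11.2 FPKM in KO and 3.34 to 4.21 FPKM in WT. All 9 neutrophil, 10 lymphocyte and 6 mast cell genes with a row were below the level for testing, with sums of 0.90 to 5.32, 0.01 to 0.68 and 0.07 to 0.36 FPKM in KO, and of 0.03 to 0.42, 0 to 1.24 and 0 to 0.55 FPKM in WT. S100a8 alone made up most of the neutrophil sum in KO. It held 0.75 of 0.90 FPKM in KO replicate 3 and 5.24 of 5.32 FPKM in KO replicate 5.

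Ccl9, a chemokine, was the macrophage gene that could be tested, and rose to 3.58 ± 1.49 FPKM in KO, against 1.60 ± 0.119 FPKM in WT (log2 difference 0.74, limma adjusted p = 0.0064), with 3.93 to 5.09 FPKM in KO replicates 1 to 4 but 2.28 and 1.26 FPKM in replicates 5 and 6. Mpeg1, the pore-forming protein perforin 2, was below the level for testing, at 2.07 to 2.31 FPKM in KO replicates 1 to 4, 0.74 and 0.46 FPKM in KO replicates 5 and 6, and 0.73 to 0.94 FPKM in WT. Values of Mpeg1 overlapped between the genotypes. Lyz2, lysozyme, was also below the level for testing, at 0.53 to 1.89 FPKM in KO and 0 to 0.23 FPKM in WT. S100a8, a calcium-binding protein of neutrophils that was not tested, was at 0.75 to 5.24 FPKM in KO and listed at 0 in all WT libraries, while its partner S100a9 was listed at 0 in all KO libraries and was at 0 to 0.16 FPKM in WT.

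Of 18 pan-leukocyte genes 5 could be tested, 3 of which rose and 1 fell, and 9 of the 18 had means below 0.1 FPKM in both genotypes. Lcp1, Arhgdib and Hcls1 reached 1 FPKM in no library of one genotype, so their calls follow from how they entered the test, and of the other 2 genes 1 rose. Lcp1, the actin-bundling L-plastin, rose to 1.40 ± 0.166 FPKM in KO, against 0.128 ± 0.0655 FPKM in WT (adjusted p = 5.1e-09). Arhgdib rose to 2.88 ± 0.586 FPKM, against 0.235 ± 0.110 FPKM in WT (adjusted p = 1.6e-08). Hcls1, a substrate of Src-family kinases, went the other way, at 0.0900 ± 0.0460 FPKM in KO and 1.40 ± 0.245 FPKM in WT (adjusted p = 9.3e-09). Itgb2, the CD18 integrin chain, rose to 3.12 ± 1.29 FPKM in KO, against 1.43 ± 0.268 FPKM in WT (adjusted p = 0.0062), but KO replicates 5 and 6 lay within the WT range, at 1.43 and 1.65 FPKM. Lsp1, at 11.0 ± 2.03 FPKM in KO and 9.94 ± 0.471 FPKM in WT, did not pass (adjusted p = 0.35).

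Signalling below TYROBP and FCER1G held 3 genes that could be tested, and all rose. Plcg2, the phospholipase C of immune receptors, rose to 2.85 ± 0.411 FPKM in KO, against 0.492 ± 0.0643 FPKM in WT (log2 difference 1.36, adjusted p = 2.1e-09). Lyn, a Src-family kinase, rose to 2.90 ± 0.541 FPKM, against 0.920 ± 0.115 FPKM in WT, and Syk, which docks on phosphorylated ITAMs, to 3.15 ± 1.26 FPKM, against 1.10 ± 0.140 FPKM in WT (adjusted p = 2.2e-07 and 0.00011). These 3 were the tested genes of 16 with a row, each reached 1 FPKM in all 6 KO libraries but not in all WT libraries, and 12 of the 16 had means below 0.1 FPKM in both genotypes.

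Among colony-stimulating factors and their receptors 9 genes could be tested, of which 5 rose and 3 fell. Among the 5 that reached 1 FPKM in all 12 libraries, 2 rose and 2 fell. Csf3 and Csf2ra reached it in no WT library and Csf2 in 1, so these entered the test through KO. Csf1, the ligand of CSF1R, was far above its receptor and rose to 122 ± 35.9 FPKM in KO, against 48.5 ± 1.64 FPKM in WT (2.51-fold, adjusted p = 3.1e-06), and here KO replicates 5 and 6 were the highest, at 133.8 and 190.31 FPKM. Il34, the other ligand, was at 0 to 0.61 FPKM in KO and 0.26 to 0.58 FPKM in WT. Csf2ra, the alpha chain of the GM-CSF receptor, rose to 3.74 ± 0.972 FPKM, against 0.567 ± 0.0924 FPKM in WT, yet the chain it signals through, Csf2rb, was at 0 to 0.03 FPKM in KO and 0 to 0.01 FPKM in WT. Csf2 itself, GM-CSF, rose 4.90-fold to 3.44 ± 0.948 FPKM, and Kitl, stem cell factor, fell 4.02-fold to 3.30 ± 0.990 FPKM (adjusted p = 1.2e-06 and 3.8e-08). Csf3, G-CSF, was at 1.95 to 3.07 FPKM in KO and listed at 0 in 5 WT libraries.

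The partners of CD14 moved in both directions. Of 20 genes of Toll-like receptor signalling 15 could be tested, of which 7 rose and 3 fell, with a median log2 difference of 0.22. Tlr4 was at 8.53 ± 3.00 FPKM in KO and 8.48 ± 0.437 FPKM in WT (adjusted p = 0.79), with 9.07 to 11.57 FPKM in KO replicates 1 to 4 and 6.22 and 3.69 FPKM in replicates 5 and 6. Tlr2, which also takes ligands from CD14, fell 6.03-fold to 3.48 ± 1.17 FPKM in KO, against 19.12 to 22.6 FPKM in WT (adjusted p = 3.4e-08). Myd88, the adaptor of most Toll-like receptors, rose 1.76-fold to 18.2 ± 0.637 FPKM and did so evenly, at 17.42 to 19.23 FPKM in KO and 9.95 to 10.96 FPKM in WT. Tlr5, the flagellin receptor, was at 1.41 ± 0.228 FPKM in KO and 0.0683 ± 0.0445 FPKM in WT (adjusted p = 5.7e-09) and entered the test through KO. Lbp, which loads lipopolysaccharide onto CD14, did not pass (adjusted p = 0.062), as KO replicates 1 to 4 held 104.61 to 120.75 FPKM, replicates 5 and 6 held 26.0 and 28.95 FPKM and the WT libraries 33.95 to 48.54 FPKM.

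The ligands of CD74, Mif and Ddt, were higher in KO although Cd74 was not, and the listed CD74 proteases moved in both directions. Of 8 tested genes 5 rose and 2 fell. Ctsl, cathepsin L, which trims the invariant chain in some cells, rose 4.03-fold to 85.5 ± 17.9 FPKM in KO, against 21.2 ± 2.21 FPKM in WT (adjusted p = 3.4e-08), while Ctss, the cathepsin that does so in antigen-presenting cells, was at 0 to 0.15 FPKM in KO and 0 to 0.17 FPKM in WT. Mif rose 1.67-fold to 405 ± 42.8 FPKM, and its paralogue Ddt rose to 23.3 ± 2.90 FPKM, against 15.5 ± 0.597 FPKM in WT (adjusted p = 9.1e-07 and 2.8e-05). Sppl2b, listed among the CD74 proteases, rose 1.59-fold to 5.18 ± 0.529 FPKM (adjusted p = 7.7e-06). Sppl2a, listed there too, and the chemokine receptor gene Ackr3 were the 2 that fell. Class I molecules were not of one direction: 3 of 10 tested genes rose and 2 fell, B2m rising 1.96-fold to 344 ± 66.5 FPKM and H2-M3 falling 2.82-fold to 2.17 ± 0.477 FPKM (adjusted p = 1.3e-05 and 1.9e-07), and with KO replicates 1 to 4 only 7 rose and 2 fell. In the list of dendritic cell and class II genes Cd80, a costimulatory ligand, fell 1.52-fold to 3.86 ± 0.565 FPKM (adjusted p = 5.5e-05), the other tested gene, Ifi30, did not pass (adjusted p = 0.20), and 14 of 16 had means below 1 FPKM.

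Lysosomal and scavenger receptor genes, the family surroundings of Cd68, rose in 10 of 13 tested, and the other 3, Lamp1, Npc1 and Ctsd, did not pass. Gpnmb, Colec12 and Olr1 reached 1 FPKM in no WT library and could enter the test only by differing, and of the other 10 genes 7 rose. The median log2 difference of the 13 was 0.73. Gpnmb, a glycoprotein of lysosomes and melanosomes, was at 33.0 ± 6.84 FPKM in KO and 0.215 ± 0.0432 FPKM in WT (log2 difference 4.78, adjusted p = 1.6e-12), and Colec12, a scavenger receptor with a collagen-like stalk, at 13.6 ± 2.89 FPKM in KO and 0.0133 ± 0.0137 FPKM in WT (adjusted p = 9.1e-12). Scarb1, the receptor for high-density lipoprotein, rose 3.25-fold to 8.63 ± 0.475 FPKM, and Olr1, the receptor for oxidised low-density lipoprotein, 7.24-fold to 2.30 ± 0.426 FPKM (adjusted p = 6.3e-11 and 1.3e-08). Cd63, a tetraspanin of late endosomes, rose 1.99-fold to 287 ± 44.5 FPKM (adjusted p = 1.4e-06). Lamp1, a close relative of Cd68, was at 219 ± 25.4 FPKM in KO and 220 ± 10.9 FPKM in WT (adjusted p = 0.92). Lipa and Npc2, which handle lysosomal cholesterol, passed here but lost the call without any one of KO replicates 1 to 4 or WT replicates 1 to 4, with log2 differences of 0.49 to 0.59 for Lipa, which also lost it without WT replicate 5, and 0.26 to 0.29 for Npc2.

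Few markers of the cell classes that share Tmem119 could be tested, 3 for microglia and 2 for osteoblasts. Among 6 microglia genes with a row, Olfml3, which reached 1 FPKM in no WT library, a secreted olfactomedin protein, rose to 11.5 ± 4.22 FPKM in KO, against 0.505 ± 0.0750 FPKM in WT (adjusted p = 4.1e-08), Sparc, a collagen-binding matrix protein, rose 1.49-fold with KO replicate 5 inside the WT range, and Sall1, a zinc finger factor, was at 0.99 to 1.65 FPKM in KO and 0 to 0.05 FPKM in WT. Of the osteoblast genes Runx2, the factor that starts bone formation, fell to 2.74 ± 0.657 FPKM in KO, against 4.34 ± 0.261 FPKM in WT (adjusted p = 0.00037), Spp1 did not pass (adjusted p = 0.071), and Sp7 and Bglap had means below 0.1 FPKM in both genotypes. Of 8 tested fibroblast genes 4 rose and 2 fell. The 4 that rose, Pdgfra, Dpt, Col3a1 and Cd34, entered the test through KO, the last 3 having reached 1 FPKM in no WT library, and of the 4 genes at 1 FPKM in all libraries 0 rose and 2 fell. The list summed to 563 to 1420 FPKM in KO and 1021 to 1079 FPKM in WT. Pdgfra, a receptor of fibroblasts, was at 10.4 ± 3.81 FPKM in KO and 1.08 ± 0.236 FPKM in WT and Dpt, dermatopontin, at 15.5 ± 5.33 FPKM in KO and 0.0433 ± 0.0677 FPKM in WT (adjusted p = 4.7e-07 and 2.1e-09). Col1a2, a collagen chain, fell, and Dcn and Col1a1 did not pass. The part of these fibroblast markers in the differences of Plac8 and Tmem119 was not tested. All 10 endothelial genes were below the level for testing, with sums of 1.21 to 1.78 FPKM in KO and 0.53 to 0.79 FPKM in WT. The 2 with the highest level differed: Kdr was at 0.40 to 0.81 FPKM in KO and 0 to 0.01 FPKM in WT. Egfl7 overlapped, at 0.26 to 0.66 FPKM in KO and 0.38 to 0.53 FPKM in WT. Neither of the 2 tested smooth muscle genes passed.

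The genes whose levels followed those of the set most closely over the 12 libraries were found by Pearson correlation of log2 values among 10308 tested genes, given here as a description, since the 2 genotypes form separate clusters. Hspb1, Pdpn and Gpx7 were closest to Tmem119 (r = 0.998 for each), Rnf128, Fgf10 and Marchf5 to Plac8 (r = 0.998 for each), Morc4, Cyp2d22 and St6gal1 to Cd68 (r = 0.990 for each), and Sumo3, Sdhaf2 and Anxa1 to Csf1r (r = 0.996 to 0.997). For Cd14 they were Rnf146, Tbcel and Mfsd11 (r = 0.942 to 0.965). Cd74 had no close match, its best being Zfp658 at r = 0.847. Like Tmem119, the podoplanin gene Pdpn kept its level in KO replicates 5 and 6, at 120.97 and 120.78 FPKM beside 99.08 to 109.87 FPKM in KO replicates 1 to 4 and 1.71 to 2.42 FPKM in WT. Like Cd68, the cytochrome P450 gene Cyp2d22 was at 9.96 to 11.84 FPKM in KO replicates 1 to 4, 3.77 and 4.46 FPKM in replicates 5 and 6, and 0.04 to 0.14 FPKM in WT.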

How the data were processed

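RNA was measured in 12 libraries, 6 KO and 6 WT by the genotype in their labels. The deposited values are FPKM given to 2 decimals, made by the authors. Per the submitters' processing notes, HISAT2 2.0.4, cutadapt 1.9, edgeR, DESeq2, StringTie 1.3.4d and the build mm9 were used, with no role given. The table also holds the authors' ratio of mean FPKM (WT over KO), the log2 of that ratio, p-values and q-values, deposited without a named test. Depth in reads is unknown, because the sources used here give no counts, and FPKM totals were 255538 to 281432 per library. An FPKM moves with the rest of its library.

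The 11831 genes that reached 1 FPKM in 6 or more libraries were tested on log2(FPKM + 1) by limma 3.58.1 (R 4.3.3), using a variance trend and no covariate, two-sided, with Benjamini-Hochberg adjustment over all of them at 0.05. All adjusted p-values are from this fit. The fit was also run on simulated data with independent noise and no split among KO libraries. That run is no support for the calls made here. No 2 libraries were alike: no pair had more than 2.35% of tested genes within 0.01 FPKM. For positions, 29384 gene IDs matched GENCODE M21 (GRCm38), which is not the build of the notes.

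The 10 genes and the lists were chosen with earlier results of these data known. Named genes are the 10, Cth, up to 4 called genes with the smallest p and the 2 with the highest level in each list, and the 3 genes most like each of the 10 in pattern, among those that are not predicted genes, clones or pseudogenes. Genes of the lists given beyond this rule, and the 2 promoter motifs, were chosen after values or matches were seen. Symbols in 2 lists are counted in each. Listed genes without a row were not analysed here. Some listed genes are not reported here. The settings varied were the pseudocount, the filter, quantile, TPM and median-ratio scaling, the variance trend, the replicate number as a block, KO replicates 1 to 4 only and each library left out.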

Additional observations from a re-analysis of the deposited data

Results flagged for a closer look

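Among 87 genes named or read for a like pattern, each read in KO and again in WT, 13 groups of 6 libraries held a value far from the other 5, by Dixon's gap test at the 95% level. Chance gives about 1 such group in 20 where values are normally spread. That rate does not hold for Tyrobp, Camp, Mcpt4 and Csf3. With the other 5 libraries at 0, any value above 0 is flagged by construction. In the myeloid set these were Tyrobp in WT replicate 3, at 0.07 FPKM where the other WT libraries were listed at 0, and Cd14 in WT replicate 6, at 44.95 FPKM beside 36.85 to 39.84 FPKM.

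Among listed genes, KO replicate 5 held 5.26 FPKM of Kitl beside 2.53 to 3.18 FPKM in the other KO libraries, and 1.87 FPKM of Csf2ra beside 3.53 to 4.44 FPKM. KO replicate 6 held 6.23 FPKM of Sppl2b beside 4.84 to 5.20 FPKM, and 20.53 FPKM of Smtn beside 8.81 to 12.26 FPKM. It was low in 2 genes that followed Csf1r, with 37.22 FPKM of Sumo3 beside 47.48 to 49.28 FPKM and 303.0 FPKM of Anxa1 beside 360.95 to 387.45 FPKM. Single libraries above 0 were seen for Mcpt4 in KO replicate 1, at 0.07 FPKM, Camp in WT replicate 6, at 0.16 FPKM, and Csf3 in WT replicate 1, at 0.05 FPKM, where the other libraries of the genotype were listed at 0. Gpnmb was at 0.13 FPKM in WT replicate 6 beside 0.22 to 0.25 FPKM, and Colec12 at 0.04 FPKM in WT replicate 5 beside 0 to 0.01 FPKM.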

How the results depend on the processing

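With a minimum of 5 FPKM, 2505 genes passed as higher in KO and 2270 as lower, against 3858 and 3657, and 26 listed genes were higher, against 43. With no filter on low values 65 listed genes were higher. Fewer or more genes were tested by construction under these settings. Leaving out 1 library gave 3664 to 4252 genes higher and 3426 to 3853 lower, and 41 to 48 listed genes higher and 14 to 17 lower. KO replicates 1 to 4 only gave 4724 and 4395, and 57 and 17 listed genes.

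Plac8, Tmem119, Cd68 and Csf1r were higher in KO under each alternative run. With a pseudocount of 0.1 their log2 differences were 6.36, 5.39, 2.22 and 1.97, and with TPM rescaling 5.98, 5.06, 2.13 and 1.78, as a smaller pseudocount relative to the values shrinks low genes less. Of the 58 listed genes called, Lipa and Npc2 lost the call with no filter, with quantile normalization and without most single libraries (9 for Lipa, 8 for Npc2), and Traf6 without WT replicate 2 and with KO replicates 1 to 4 only. The cause was not tested.

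With the replicate number as a block, 3610 genes were higher and 3349 lower, and among listed genes 41 and 14. Ly96, Traf6, Npc2 and Lipa lost their calls. Libraries with the same number share only that number: their deviations from the group means correlated at -0.27 to -0.06, and in 0 of 6 KO libraries was the best match the WT library of that number. Unknown depth limits all values near 0.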
